A study of Mus musculus with 30 samples.

Results

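The end of mouse chromosome 12 around the immunoglobulin heavy chain locus (Igh) was examined in mice with and without the JHT allele, which deletes the J segments of that locus. The genes are those with a symbol that start on chromosome 12 from 103.4 Mb to the chromosome end on GRCm38, found through the accession of each array probe. Igh genes, the Serpina1 and Serpina3 genes, Hsp90aa1 and Bag5 were left out. Of 36717 genes and transcripts on the array, 21367 with a symbol, 137 are in this stretch: 119 protein coding genes, 17 long non-coding RNAs and 1 transcribed pseudogene. They start between 10.01 Mb before and 6.53 Mb after the start of Ighm (113418826 to 113422730 on chromosome 12). RefSeq lists 126 protein coding genes there, and 119 of them were measured.

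By the numbers in the labels, RNA from 15 mice was hybridised to single-colour Agilent arrays, 1 array of the hippocampus and 1 of the rest of the brain per mouse. The mice were 15 to 20 months old, carried the strain label C57BL/6j and had been perfused with PBS. There were 3 WT, 2 JHT, 2 3xTgAD and 2 JHT_3xTgAD females, and 3 3xTgAD and 3 JHT_3xTgAD males. 3xTgAD mice model familial Alzheimer's disease. They carry mutant human APP and tau driven by the neuronal Thy1 cassette, together with a mutant presenilin-1 allele. The methods describe them as congenic, with a strain name that joins C57BL/6 and a second strain. Whether they carry DNA of that second strain near Igh was not tested. JHT mice develop no functional B cells, and JHT_3xTgAD mice (3×TgAD-BKO) combine both. By the methods, WT females were purchased and the JHT and transgenic mice were bred in house, so genotype and origin cannot be told apart where WT is a control. In each tissue the 3xTgAD arrays lay on 1 slide and the WT arrays on another, so 3xTgAD against WT cannot be told apart from slide. The 7 mice with the JHT allele are called carriers, and the 8 WT and 3xTgAD mice are called others.

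The Igh locus encodes the antibody heavy chain, and without J segments its V and D segments cannot be joined into a heavy chain, so B cells fail to mature. The JHT allele was made in embryonic stem cells of another strain and moved onto C57BL/6, and DNA beside a selected allele is inherited with it. The neighbours of a targeted locus can therefore differ between carriers and others in sequence as well as in the cells present. The deletion, the loss of B cells and any flanking DNA of the donor strain go together in these mice and cannot be told apart. The genotype itself could not be checked at the locus, since no Igh gene was matched to a probe. Of the genes for the signalling subunits of the B cell receptor, no array of either tissue had Cd79a well above background. Cd79b was well above background on 7 of 7 carrier and 8 of 8 other arrays in hippocampus and on 6 and 8 in brain. Its signal overlapped between carriers and others, at 5.32 to 6.58 against 5.38 to 7.49 in hippocampus and 5.19 to 6.62 against 5.68 to 8.03 in brain, so neither gene separated the genotypes. Thy1, which detects the transgene cassette, lay at 17.95 to 18.28 on the log2 scale in the hippocampus of transgenic mice against 16.85 to 17.06 in the rest, and at 17.33 to 17.68 against 16.84 to 17.11 in brain. Of the dissection markers, the summed level of 5 genes of the striatum and other brain lay at 10.61 to 11.88 in carriers and 11.27 to 11.78 in others in hippocampus, where 1 of the 5 was called lower in carriers, and at 14.18 to 14.66 and 14.23 to 14.67 in brain, where none was called. The hippocampi differed widely in choroid plexus genes: the summed level of 8 of them ran from 11.33 to 18.44 in carriers and from 10.86 to 18.54 in others, against 16.02 to 17.48 and 16.38 to 17.17 in brain, and their median carrier change in hippocampus was 1.37 with none called. Their part in the hippocampal changes was not tested.

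Figures for the whole set of arrays bear on how far single values can be read. The 75th percentile of intensity was 454 to 824 in hippocampus and 841 to 1636 in brain, and 54.0 to 63.6% of spots were well above background. Of the 137 genes, 93 were well above background on every hippocampal array, 32 on some and 12 on none, against 99, 22 and 16 in brain. The hippocampal array of JHT_3xTgAD male replicate 0 stood apart, with 432 spots marked as outliers against 104 to 150 on the other hippocampal arrays. On it, 9 of the genes lay over 1 log2 unit below every other hippocampal array, against 0 or 1 on the others, and Crip2 had no value there and was fitted without it. Values below are log2 signals after quantile normalization, and a change is the mean of the 3 matched differences (JHT minus WT females, JHT_3xTgAD minus 3xTgAD females, JHT_3xTgAD minus 3xTgAD males). A change was called when the Benjamini-Hochberg adjusted p over all 36717 genes and transcripts, from limma, was under 0.05. The labels number the mice but do not describe litters, and in whole tissue fewer cells of a type and less RNA per cell cannot be told apart.

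Most of the 137 genes did not differ between carriers and others at this threshold. Those of them that did lay mainly in 1 short block after Ighm. Of the 17 genes left out, 7 were called in brain and 2 in hippocampus, against 1.62% and 0.613% of all genes. With these included, 8 of 108 genes (7.41%) were called in brain in the 10 Mb window centred 8.42 Mb before Ighm. It was 4 of 82 (4.88%) in the window centred 1.58 Mb after it. In brain, Zfp386 fell 2.16-fold and Vipr2 1.87-fold, Ccdc85c fell 1.17-fold, and Esyt2 and Ncapg2 rose 1.26-fold and 1.31-fold. In hippocampus, Zfp386 fell 1.67-fold and Wdr60 1.40-fold. Zfp386 was called in both tissues. Zfp386, Vipr2, Wdr60, Esyt2 and Ncapg2 start next to each other between 2.63 and 2.99 Mb after Ighm, with only the non-coding D430020J02Rik among them, and Ccdc85c starts 5.22 Mb before it. On GRCm38 chromosome 12 the genes run from 116047714 to 116063231 (Zfp386), 116077420 to 116148637 (Vipr2), 116206261 to 116263046 (Wdr60), 116279283 to 116390935 (Esyt2), 116405351 to 116463532 (Ncapg2) and 108203599 to 108277852 (Ccdc85c). Distances use the lower coordinate of each gene.

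The 300 bases from 250 before to 50 after a RefSeq transcript start of each of these 6 genes (GRCm38.p6) are shown because they are the regulatory sequence nearest to the genes that changed, read 5′ to 3′ on the strand of the gene. They are reference sequence, and the alleles in these mice were not read. The windows are chr12:108275344-108275643 for Ccdc85c (minus strand), chr12:116047474-116047773 for Zfp386 (plus), chr12:116077476-116077775 for Vipr2 (plus), chr12:116262976-116263275 for Wdr60 (minus), chr12:116280972-116281271 for Esyt2 (plus) and chr12:116405186-116405485 for Ncapg2 (plus). Capitals mark GC boxes (GGGCGG or CCGCCC) and CCAAT boxes (CCAAT or ATTGG), searched on both strands, with overlapping matches run together.
Ccdc85c: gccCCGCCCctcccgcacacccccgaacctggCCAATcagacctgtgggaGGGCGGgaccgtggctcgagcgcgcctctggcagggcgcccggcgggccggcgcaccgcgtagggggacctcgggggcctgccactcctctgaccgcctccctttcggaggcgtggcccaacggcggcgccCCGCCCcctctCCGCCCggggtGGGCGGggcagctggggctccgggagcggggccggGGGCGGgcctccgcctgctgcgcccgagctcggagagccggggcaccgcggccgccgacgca
Zfp386: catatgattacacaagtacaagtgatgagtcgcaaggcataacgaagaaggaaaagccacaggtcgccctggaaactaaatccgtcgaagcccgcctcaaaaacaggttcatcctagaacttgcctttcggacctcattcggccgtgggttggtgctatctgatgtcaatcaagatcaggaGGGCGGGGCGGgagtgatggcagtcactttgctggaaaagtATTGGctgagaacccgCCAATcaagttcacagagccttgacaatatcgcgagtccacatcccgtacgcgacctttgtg
Vipr2: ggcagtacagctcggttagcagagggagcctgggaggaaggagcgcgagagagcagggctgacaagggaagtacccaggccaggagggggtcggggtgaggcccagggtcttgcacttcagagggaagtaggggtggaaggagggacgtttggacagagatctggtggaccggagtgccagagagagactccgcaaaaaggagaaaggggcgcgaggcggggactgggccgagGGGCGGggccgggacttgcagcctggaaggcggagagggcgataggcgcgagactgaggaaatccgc
Wdr60: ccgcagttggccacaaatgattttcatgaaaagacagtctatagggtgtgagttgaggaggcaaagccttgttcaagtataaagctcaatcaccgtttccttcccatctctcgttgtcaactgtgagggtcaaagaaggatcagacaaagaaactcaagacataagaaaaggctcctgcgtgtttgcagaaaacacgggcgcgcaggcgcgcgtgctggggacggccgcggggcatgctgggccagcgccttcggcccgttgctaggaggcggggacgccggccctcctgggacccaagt
Esyt2: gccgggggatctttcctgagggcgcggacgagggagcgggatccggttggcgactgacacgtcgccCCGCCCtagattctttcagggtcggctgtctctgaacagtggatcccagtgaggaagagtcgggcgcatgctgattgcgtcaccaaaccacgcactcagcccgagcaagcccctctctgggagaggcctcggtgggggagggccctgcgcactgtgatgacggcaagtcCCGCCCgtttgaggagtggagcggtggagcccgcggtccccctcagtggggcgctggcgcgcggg
Ncapg2: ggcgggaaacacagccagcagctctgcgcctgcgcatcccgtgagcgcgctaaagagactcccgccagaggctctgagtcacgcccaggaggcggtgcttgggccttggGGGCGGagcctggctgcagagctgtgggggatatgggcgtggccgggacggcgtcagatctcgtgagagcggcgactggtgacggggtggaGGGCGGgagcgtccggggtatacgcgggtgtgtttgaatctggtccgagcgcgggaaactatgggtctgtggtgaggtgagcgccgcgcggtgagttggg
Zfp386, which fell in both tissues, has 2 GC boxes, 2 CCAAT boxes and 51.0% GC. Vipr2 has 1 GC box and 65.3% GC, and Wdr60 has neither box, 1 TATAAA and 56.0% GC. Esyt2 and Ncapg2, which rose in brain, each have 2 GC boxes and 68.0% GC. Ccdc85c has 6 GC boxes, 1 CCAAT box and 81.0% GC. Of 32851 promoters of this length in the table, 35.7% hold a GC box, 37.4% a CCAAT box and 13.6% a TATAAA on either strand, and their median GC was 52.7%. The matches are a description of these letters only.

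**Figure D1:**
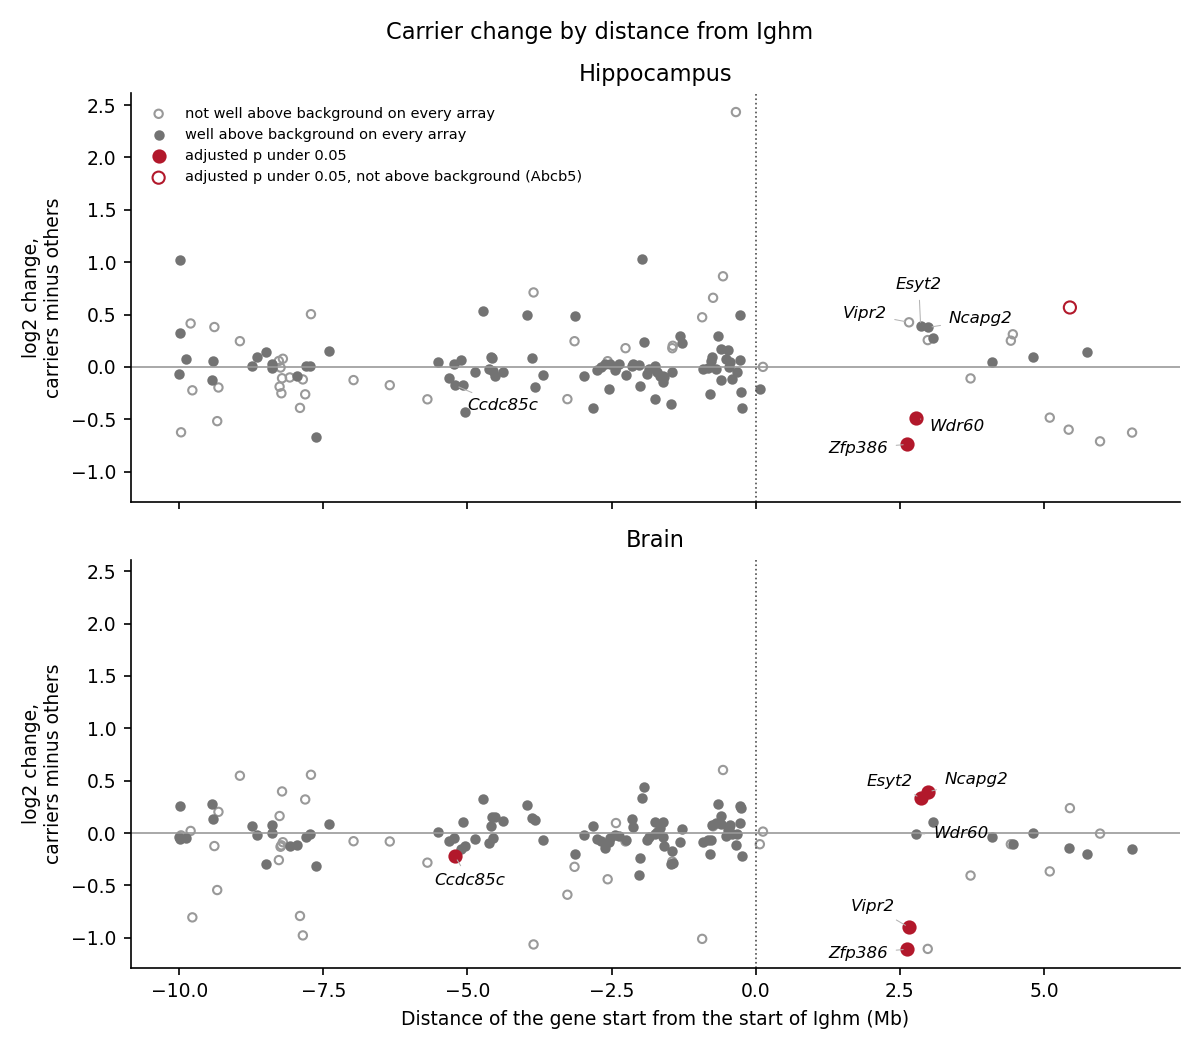
Carrier change on the log2 scale (vertical axis) of the 137 genes against the distance of each gene start from the start of Ighm in Mb (horizontal axis; negative is before Ighm), in hippocampus and brain; filled points were well above background on every array and red points had an adjusted p under 0.05. The red points cluster between 2.63 and 2.99 Mb after Ighm, apart from Ccdc85c at 5.22 Mb before and Abcb5, which was not above background on any array. The open point at 2.43 in hippocampus is Tex22, above background on 3 carrier arrays and 1 other. The 17 genes left out of the stretch are not shown.

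Counted over the whole stretch, 3 of 137 genes (2.19%) were called in hippocampus, where 0.613% of all genes and transcripts were, and 5 (3.65%) in brain, where 1.62% were. Abcb5 is the third in hippocampus, an ABC transporter gene whose probe was not above background on any array, so no fold is given for it. At an unadjusted p under 0.05 there were 14 (10.2%) in hippocampus against 8.92% of all genes, and 28 (20.4%) in brain against 13%. The 7 carriers and 8 others did not overlap for 3 genes in hippocampus (2.19%, against 0.174% of all) and for 4 in brain (2.92%, against 0.155%). The size of change over the list was close to that over all genes: the median absolute change was 0.139 against 0.116 in hippocampus and 0.110 against 0.108 in brain. Without male replicate 0 it was 0.0978 against 0.101 in hippocampus. Its direction was mixed, with 69 genes higher and 68 lower in hippocampus and 53 higher and 84 lower in brain, and medians of 0.00 and -0.04 against -0.01 and 0.00 over all genes. Of the genes well above background on every array, 72 of 93 in hippocampus and 82 of 99 in brain changed by less than 0.25.

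Zfp386 encodes a KRAB zinc finger protein and had the widest gap between carriers and others of the 4 genes without overlap in brain. In brain its log2 signal ran from 10.91 over a median of 11.07 to 11.17 in carriers and from 11.996 over 12.18 to 12.30 in others. In hippocampus it ran from 10.81 over 11.08 to 11.33 in carriers and from 11.47 over 11.75 to 12.04 in others. Every carrier lay below every other mouse in both tissues, by a gap of 0.82 in brain and of 0.14 in hippocampus, where Wdr60 had a wider one.

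The carrier change of Zfp386 was -1.11 ± 0.05 (SE) in brain (limma adjusted p = 1.54e-06) and -0.74 ± 0.08 in hippocampus (adjusted p = 0.00171), ranks 9 and 40 by p of all 36717. In brain each matched difference was called by itself: -0.99 in females without the transgenes (adjusted p = 0.000638), -1.12 in transgenic females (adjusted p = 0.000228) and -1.22 in transgenic males (adjusted p = 2.46e-05). In hippocampus they were -0.68 (adjusted p = 0.224), -1.07 (adjusted p = 0.0134) and -0.47 (adjusted p = 0.101), so 1 of 3 was called. The mean signal was 11.08 ± 0.17 (SD, n = 7) in hippocampal and 11.05 ± 0.11 in brain carriers, and 11.79 ± 0.18 (n = 8) and 12.17 ± 0.09 in the others. The difference of the change between hippocampus and brain was 0.37 ± 0.09 (SE) and was not called (adjusted p = 0.281). Zfp386 has 3 probes, all well above background. In brain all 3 fell (-1.11, -0.96 and -0.51, adjusted p over all 55681 probes 1.47e-06, 5.47e-06 and 0.00161), and in hippocampus the changes were -0.74 (adjusted p = 0.00172), -0.58 (0.0783) and -0.12 (0.823). The fall was thus of unequal size across probes of 1 gene. Probe sequences were not in the sources used here, so whether a donor-strain base lies under a probe was not tested.

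Vipr2 encodes a receptor for VIP and PACAP, peptides that act in brain circuits including the circadian clock. In brain its log2 signal was 9.76, 9.84 and 9.48 in the WT females, 10.01 and 9.93 in the 3xTgAD females and 10.04, 10.10 and 10.56 in the 3xTgAD males. It was 8.90 and 9.30 in JHT females, 8.85 and 9.17 in JHT_3xTgAD females and 8.51, 9.30 and 9.45 in JHT_3xTgAD males. All carriers were below all others, but only just, since a WT mouse at 9.48 and a carrier at 9.45 were 0.03 apart. The change was -0.90 ± 0.16 (SE, adjusted p = 0.0198), made up of -0.59, -0.96 and -1.15 in the matched pairs of groups, of which none was called alone (adjusted p from 0.0616 to 0.802). In hippocampus the signal was much closer to background and the groups overlapped, at 4.02 to 7.10 with a median of 6.64 in carriers and 5.54 to 6.30 with a median of 5.90 in others. There, 5 of 7 carriers were above all others and 1, male replicate 0 on the array with many outlier spots, was below them and not well above background. The hippocampal change was 0.43 ± 0.36 (adjusted p = 0.825), and 0.69 without replicate 0 (adjusted p = 0.185). Its difference from the brain change was 1.33 ± 0.40 and was not called (adjusted p = 0.602), while without replicate 0 it was 1.49 with an adjusted p of 0.00599. The other 2 Vipr2 probes were dim: in brain 1 changed by -0.38 (adjusted p = 0.518) and 1 was not above background on any array.

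Wdr60 encodes an intermediate chain of the dynein-2 motor that carries cargo back along cilia. In hippocampus it read 8.95 and 8.88 in JHT females, 8.84 and 8.85 in JHT_3xTgAD females and 9.02, 8.75 and 8.74 in JHT_3xTgAD males. The others read 9.32, 9.50 and 9.32 (WT females), 9.19 and 9.39 (3xTgAD females) and 9.27, 9.73 and 9.20 (3xTgAD males). Carriers were below all others with a gap of 0.17, and the matched differences were close to each other, at -0.47, -0.44 and -0.56. The change of -0.49 ± 0.09 (SE) had an adjusted p of 0.0467, and it lost the call without any 1 of 12 of the 15 mice (adjusted p 0.0550 to 0.110). In brain the Wdr60 signal overlapped fully, from 9.04 to 9.94 in carriers and 9.45 to 9.69 in others. The JHT_3xTgAD females were the highest there, at 9.87 and 9.94, and the males of that genotype included the lowest, at 9.04 and 9.05. The brain change was -0.01 ± 0.10 (adjusted p = 0.979), and its matched differences had both signs (-0.13, 0.43 and -0.32). The hippocampal minus the brain change was -0.48 ± 0.14 (adjusted p = 0.458).

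Esyt2 encodes an extended synaptotagmin, which tethers the endoplasmic reticulum to the plasma membrane. It was higher in all carriers than in all others in both tissues, with a log2 signal of 10.54 to 10.73 (median 10.63) against 10.18 to 10.39 (median 10.31) in brain. In hippocampus it was 10.18 to 10.999 (median 10.38) against 9.80 to 10.15 (median 9.998). The groups were 0.15 apart in brain and 0.03 in hippocampus, where the highest carrier was again male replicate 0. The brain change was 0.33 ± 0.05 (SE, adjusted p = 0.00454), with matched differences of 0.26, 0.40 and 0.34 that had adjusted p of 0.482, 0.0600 and 0.0594. The hippocampal change was 0.39 ± 0.11 and was not called (adjusted p = 0.233), but it was called with slide as a block (0.54, adjusted p = 0.000923) and with all 30 arrays in 1 fit (0.39, adjusted p = 0.0189). Without replicate 0 it was 0.31 (adjusted p = 0.0771), and the tissues differed by 0.05 ± 0.12 (adjusted p = 0.971).

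Ncapg2 encodes a subunit of condensin II, which compacts chromosomes. In brain it read 8.25 and 8.10 in JHT females, 8.46 and 8.51 in JHT_3xTgAD females and 7.97, 8.33 and 8.42 in JHT_3xTgAD males, against 7.73 to 8.04 (median 7.93) in others. Of the carriers, 6 of 7 were above all others, and male replicate 0, the only brain array on slide 2, was within their range. The change was 0.39 ± 0.08 (SE, adjusted p = 0.0354), and 11 of the 15 fits that left out 1 mouse did not call it. In hippocampus the groups overlapped (7.47 to 8.59 in carriers, 7.20 to 7.80 in others) and the change was 0.38 ± 0.12 (adjusted p = 0.286). There the difference between males, at 8.54 (replicate 0), 7.90 and 8.59 against 7.20, 7.21 and 7.44, was called (1.06, limma adjusted p = 0.0328). In females the JHT_3xTgAD against 3xTgAD difference was 0.16 (limma adjusted p = 0.845) and the JHT against WT difference was -0.09. The female minus male difference of the JHT_3xTgAD change, -0.90 ± 0.29, was not called (adjusted p = 0.114).

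Ccdc85c, a coiled-coil protein of apical junctions in the developing brain, lies on the far side of Ighm. In brain its log2 signal was 13.07 to 13.26 (median 13.16) in carriers and 13.30 to 13.51 (median 13.38) in others, so the groups did not overlap but were 0.04 apart. The change was -0.22 ± 0.04 (SE, adjusted p = 0.0350), with matched differences of -0.19, -0.28 and -0.20. It was the smallest of the called changes, and 10 of the 15 fits that left out 1 mouse did not call it. In hippocampus the groups overlapped widely, from 11.90 to 13.15 in carriers and 12.68 to 12.99 in others, and the change was -0.18 ± 0.16 (adjusted p = 0.840). It was -0.055 without male replicate 0 (adjusted p = 0.882) and -0.42 with slide as a block (adjusted p = 0.00472), where the slide term rests on the JHT_3xTgAD males alone. The second Ccdc85c probe was above background on 2 carrier arrays and none of the others in brain, with a change of -0.33 (adjusted p = 0.698).

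**Figure D2:**
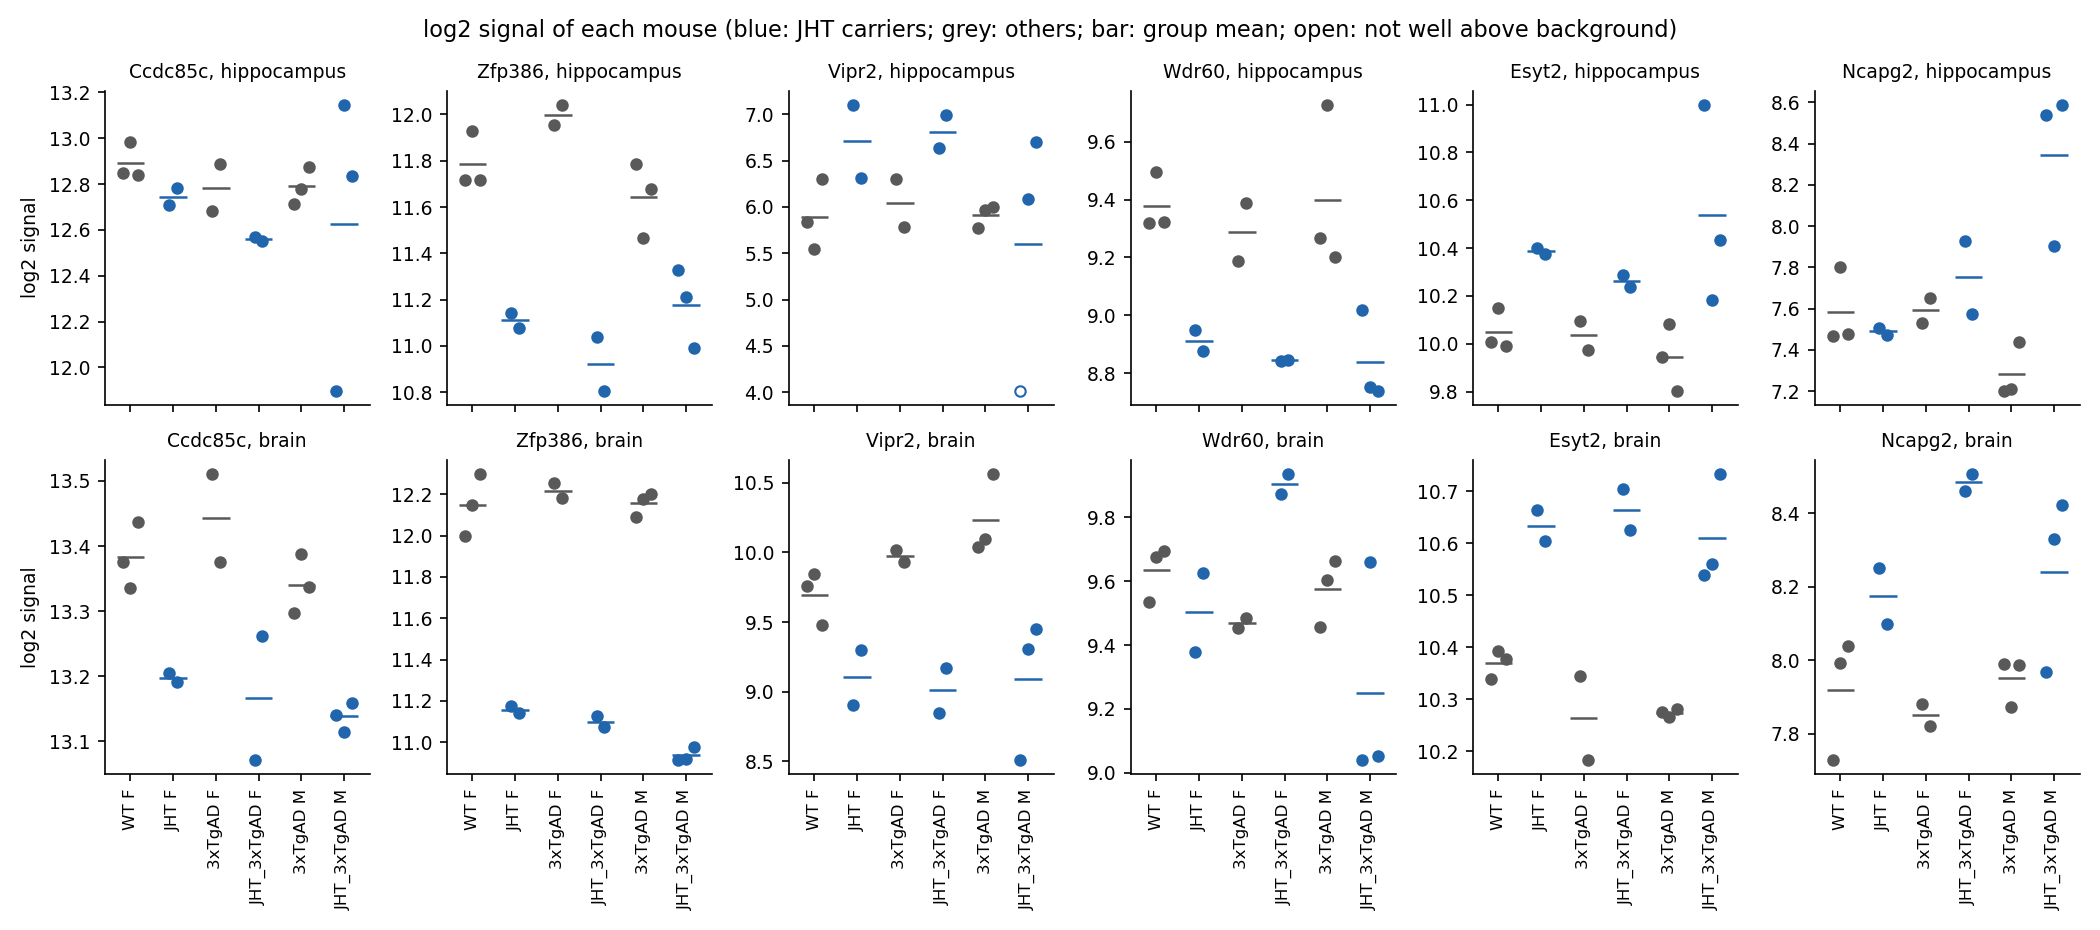
log2 signal (vertical axis, its own scale in each panel) of each mouse for 6 genes in hippocampus (top) and brain (bottom), by genotype and sex (horizontal axis); blue points are carriers, grey points are others, bars are group means and the open point was not well above background. Carriers and others do not overlap for Zfp386 and Esyt2 in both tissues, for Wdr60 in hippocampus and for Vipr2 and Ccdc85c in brain.

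**Figure D3:**
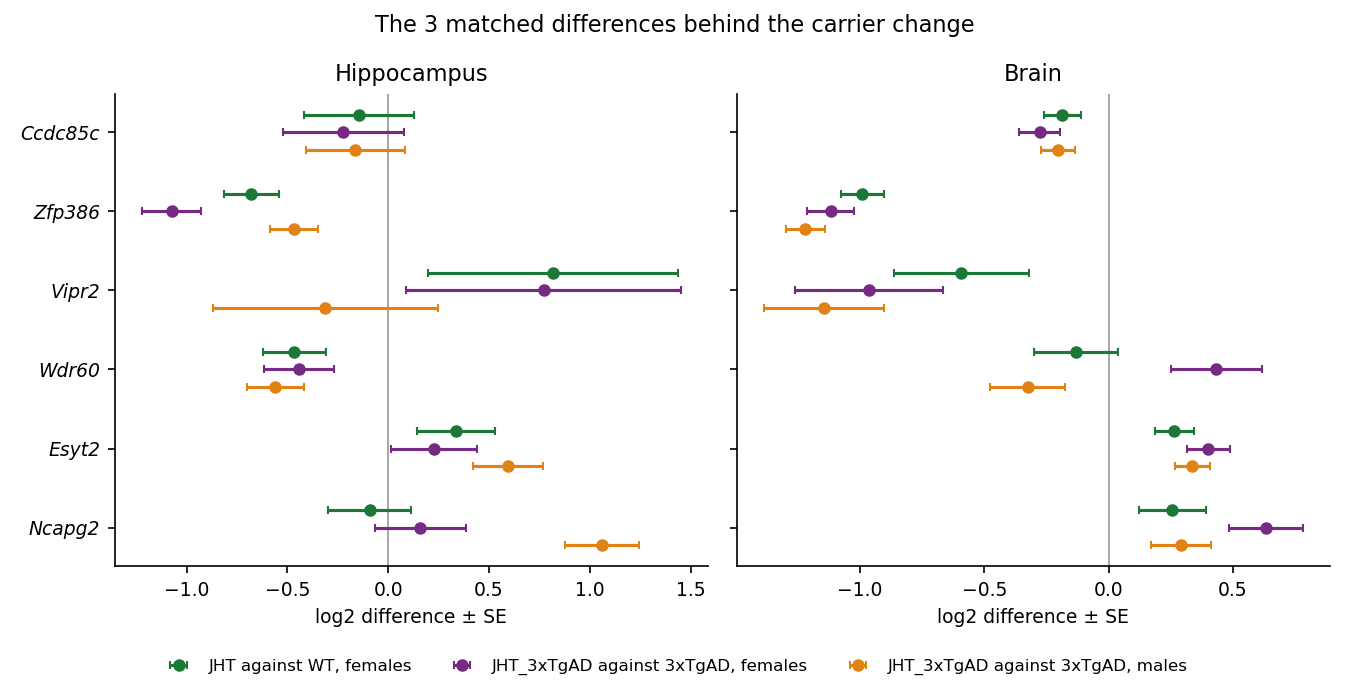
The 3 matched differences behind each carrier change on the log2 scale (horizontal axis, points with bars of 1 SE from limma) for 6 genes in hippocampus and brain. Zfp386 lies below 0 in all 3 in both tissues, from -1.22 to -0.99 in brain, and Wdr60 lies between -0.56 and -0.44 in hippocampus but on both sides of 0 in brain.

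Ordered by distance, 12 genes start 2 to 5 Mb after Ighm (Zfp386 to Sp4). They held 2 of the 3 calls in hippocampus and 4 of the 5 in brain. That is 16.7% and 33.3% of the 12, against 0.613% and 1.62% of all genes. In each tissue 3 of the 12 did not overlap, against 0.174% of all genes in hippocampus and 0.155% in brain. The median absolute change of the 12 was 0.296 in hippocampus and 0.222 in brain, against 0.116 and 0.108 over all genes. The called genes did not reach to the end of this stretch of 12. Ptprn2, a phosphatase-like protein of dense-core vesicles that starts 3.07 Mb after Ighm, changed by 0.28 in hippocampus (adjusted p = 0.532) and 0.11 in brain (adjusted p = 0.709). Beyond it, Rapgef5 at 4.10 Mb and Sp4, a transcription factor gene at 4.81 Mb, changed by 0.05 and 0.10 in hippocampus and by -0.04 and 0.00 in brain. Gm10421 at 3.73 Mb was above background on 3 carrier and 7 other brain arrays, with a change of -0.41 (adjusted p = 0.168), and on no hippocampal array.

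Of the 40 genes that start under 2 Mb before Ighm (Tnfaip2 to Tmem121), 0 were called in limma in either tissue, with 0.613% of all genes called in hippocampus and 1.62% in brain, and 6 in hippocampus and 9 in brain had an unadjusted p under 0.05, against 8.92% and 13% of all. Adam6b and Adam6a, the 2 measured under 2 Mb after it, were not called, and Adam6a was above background on no array of either tissue. Tmem121, the nearest bright gene before it at 0.23 Mb, ran from 11.70 over 11.97 to 12.08 in brain carriers and from 12.01 over 12.13 to 12.27 in others. The groups overlapped and the change was -0.21 ± 0.06 (SE, adjusted p = 0.103), with -0.39 ± 0.25 in hippocampus. There male replicate 0 lay at 10.47 and the other carriers at 12.03 to 12.49, and without it the change was -0.19 (adjusted p = 0.449). Crip1, a small LIM domain protein 0.27 Mb before Ighm, ran from 11.95 over 12.21 to 12.53 in hippocampal carriers and from 11.57 over 11.73 to 12.06 in others. They overlapped, and its change of 0.50 ± 0.10 had an adjusted p of 0.0686, against 0.26 ± 0.12 in brain (adjusted p = 0.388). Tedc1, Crip2 and Mta1, the next bright genes, changed by -0.24, 0.07 and -0.05 in hippocampus and by 0.24, 0.09 and -0.01 in brain, with Tedc1 at -0.061 in hippocampus without male replicate 0. Of the 33 genes 2 to 5 Mb before (Evl to Exoc3l4) none was called, and of the 44 over 5 Mb before (Ddx24 to Eml1) 1, Ccdc85c in brain. Of the 6 genes over 5 Mb after Ighm, 1 was called in hippocampus, Abcb5, and none in brain.

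**Figure D4:**
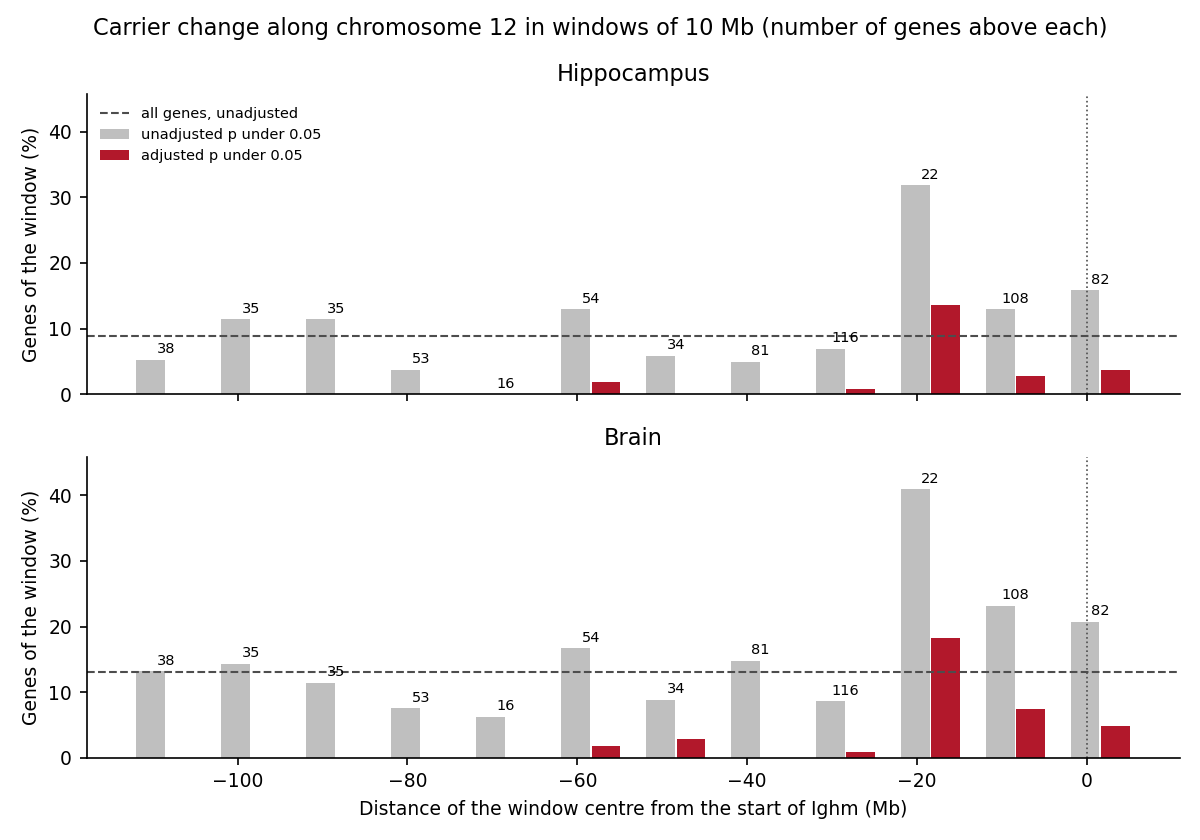
Share of genes of each 10 Mb window of chromosome 12 (vertical axis, %) with an unadjusted p under 0.05 (grey) or an adjusted p under 0.05 (red), by the distance of the window centre from the start of Ighm in Mb (horizontal axis; the 2 bars stand on either side of the centre), with the number of genes above; the 17 genes left out of the 137 are included and the dashed line is the share over all genes. The window at -18.4 Mb, before the 137 genes, has the highest shares in both tissues.

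The rest of the chromosome gives the comparison. Of its 520 genes before the stretch, 6 (1.15%) were called in hippocampus and 7 (1.35%) in brain, and 2 (0.385%) and 4 (0.769%) did not overlap between carriers and others. Those calls were not spread evenly: in the 10 Mb window centred 18.4 Mb before Ighm, 3 of 22 genes (13.6%) were called in hippocampus and 4 (18.2%) in brain. The gene there with the lowest p in both tissues was Ttc8, a subunit of the BBSome that works in cilia, 14.5 Mb before Ighm, which fell by 0.82 in hippocampus (adjusted p = 0.00154) and 0.76 in brain (adjusted p = 0.000104). Among the 17 left-out genes of the stretch, 2 were called in hippocampus and 7 in brain, against 0.613% and 1.62% of all genes. Of the 17, 2 in hippocampus and 6 in brain did not overlap, against 0.174% and 0.155% of all genes. The shares over the 137 genes thus do not cover all the carrier differences on this end of the chromosome.

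By role, each list of genes in the stretch held 0 or 1 called member per tissue, where 0.613% of all genes were called in hippocampus and 1.62% in brain. Of 11 transcription factors and chromatin proteins, 1 fell in each tissue (Zfp386), and the list's median change was 0.03 in hippocampus and -0.01 in brain. Of 12 motor, cytoskeleton and membrane contact genes, 1 fell in hippocampus (Wdr60) and 1 rose in brain (Esyt2), with medians of -0.03 and -0.01. Of 6 receptors and ligands, 1 fell in brain (Vipr2) and none passed in hippocampus, with medians of -0.11 in brain and 0.11 in hippocampus. Of 13 metabolism and RNA genes, 1 rose in brain (Ncapg2) and none passed in hippocampus, with medians of -0.01 in brain and 0.01 in hippocampus. None passed in either tissue among 9 kinases and phosphatases (medians 0.03 in hippocampus and 0.06 in brain), 7 serpins other than Serpina1 and Serpina3 (-0.12 and 0.02), 6 of 7 listed genes of the imprinted Dlk1-Dio3 domain (0.29 and 0.03) and 6 immune signalling genes (0.39 and 0.27), of which 2 in each tissue were higher at an unadjusted p under 0.05.

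In the imprinted Dlk1-Dio3 domain, whose genes are expressed from 1 parental copy, Dlk1 changed by 0.49 ± 0.29 (SE) in hippocampus and 0.27 ± 0.16 in brain (adjusted p = 0.725 and 0.519). Meg3, its maternally expressed non-coding RNA, changed by 0.09 ± 0.25 and 0.14 ± 0.09 (adjusted p = 0.949 and 0.547), and its hippocampal change was -0.068 without male replicate 0. In the immune signalling list, Tnfaip2, which TNF induces, ran in hippocampus from 5.93 over 7.07 to 8.02 in carriers and from 5.47 over 5.87 to 6.53 in others. The groups overlapped, and the change of 1.03 ± 0.27 was the largest of the genes well above background on every array but had an adjusted p of 0.177, with 0.33 ± 0.14 in brain (adjusted p = 0.369). Of 8 endothelial markers, 1 in each tissue was called higher in carriers, and 5 in hippocampus and 3 in brain had an unadjusted p under 0.05 (8.92% and 13% of all genes had). Their summed level overlapped between the groups, at 15.35 to 15.84 in carriers and 14.89 to 15.76 in others in hippocampus, and 15.52 to 16.31 against 15.11 to 16.12 in brain. Their part in these changes was not tested. In the metabolism list, Papola, the nuclear poly(A) polymerase, had an adjusted p of 0.0587 in brain (-0.32 ± 0.07). In hippocampus it changed by -0.67 ± 0.56, where 1 carrier lay at 5.81 and the carriers' median was 10.02, and by -0.21 without male replicate 0.

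Of the 137 genes, 6 (4.38%) had an unadjusted p under 0.05 in both tissues, against 3.39% of all genes, and the 6 had the same sign in both, as did 96.5% of all such genes. By the numbers in the labels, the tissues came from the same mice. The 6 were Zfp386, Esyt2, Ncapg2, Tnfaip2, Degs2 and Adssl1. Degs2, a desaturase and hydroxylase of sphingolipid synthesis 4.73 Mb before Ighm, changed by 0.54 ± 0.16 (SE) in hippocampus and 0.33 ± 0.12 in brain (adjusted p = 0.247 and 0.258). Adssl1, an enzyme of purine nucleotide synthesis, changed by -0.26 and -0.20 (adjusted p = 0.484 and 0.377). Over all 137 genes, no difference of the carrier change between hippocampus and brain was called (0.0654% of all genes were), and 10 had an unadjusted p under 0.05 against 4.81% of all genes.

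The single comparisons named few further genes. Between JHT and WT females in hippocampus 2 of the 137 were called (0.0926% of all genes were): Abcb5 and Aspg, an asparaginase gene. Aspg was 10.47 and 10.55 in JHT females against 9.71, 9.73 and 9.93 in WT females, without overlap, and 0.72 ± 0.10 higher (SE, adjusted p = 0.0386). It was also called between 3xTgAD and WT females, at 10.45 and 10.63, by 0.75 ± 0.10 (adjusted p = 0.0104), where it was the only call (0.746% of all genes were). Both comparisons use the same WT mice, which are lower than the mice of each other group, and the second is also a comparison of 2 slides. Between JHT_3xTgAD and 3xTgAD females in hippocampus only Zfp386 was called (0.37% of all). Between males it was Degs2, at 10.31, 10.06 and 9.64 against 9.28, 8.67 and 8.23 (1.27 ± 0.25, adjusted p = 0.0481), and Ncapg2 (0.847% of all). Of the JHT_3xTgAD males, replicate 0 (10.31 for Degs2) lay on slide 1 with the 3xTgAD males, and replicates 8 and 9 lay on slide 2. Slide and genotype are thus partly confounded between these males.

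In brain, Zfp386 was the only call between JHT and WT females (0.161% of all genes were) and between JHT_3xTgAD and 3xTgAD males (0.961%). Between JHT_3xTgAD and 3xTgAD females 2 were called (1.12% of all): Zfp386 and D430020J02Rik, a non-coding RNA gene 2.98 Mb after Ighm beside Ncapg2. D430020J02Rik was well above background on 3 brain arrays, both 3xTgAD females at 5.25 and 6.76 and JHT_3xTgAD male replicate 0 at 4.10. The 3xTgAD females were at least 2.64-fold above the JHT_3xTgAD females (adjusted p = 0.0349) and at least 3.17-fold above the WT females (adjusted p = 0.0415), taking the lowest signal among probes well above background on each dim array. In hippocampus it was above background in male replicate 0 alone, at 7.70, and the same 3xTgAD females read 3.16 and 2.97. The arrays above background thus did not follow the carrier grouping. Between 3xTgAD and WT females in brain, Amn, which helps take up vitamin B12 in gut and kidney, was called as well (0.58 ± 0.11, adjusted p = 0.0348; 1.15% of all genes were), and this comparison too sets 1 slide against another, as does that of D430020J02Rik with WT.

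The female minus male difference of the JHT_3xTgAD against 3xTgAD change was called for 0 of the 137 genes in limma in both tissues (0.0245% of all genes in hippocampus, 0.101% in brain). At an unadjusted p under 0.05 there were 36 in hippocampus against 21.2% of all genes and 9 in brain against 8.75%. The difference of the female carrier change with and without the transgenes was called for Abcb5 alone in hippocampus (0.131% of all) and for 0 in brain (0.379%), with 18 and 11 at an unadjusted p under 0.05 (13.5% and 8.51% of all). For Zfp386 in brain these differences were 0.10 ± 0.12 (SE, adjusted p = 0.828) between the sexes and -0.13 ± 0.13 (adjusted p = 0.832) between backgrounds. In hippocampus they were -0.61 ± 0.19 (adjusted p = 0.110) and -0.40 ± 0.20 (adjusted p = 0.439).

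**Figure D5:**
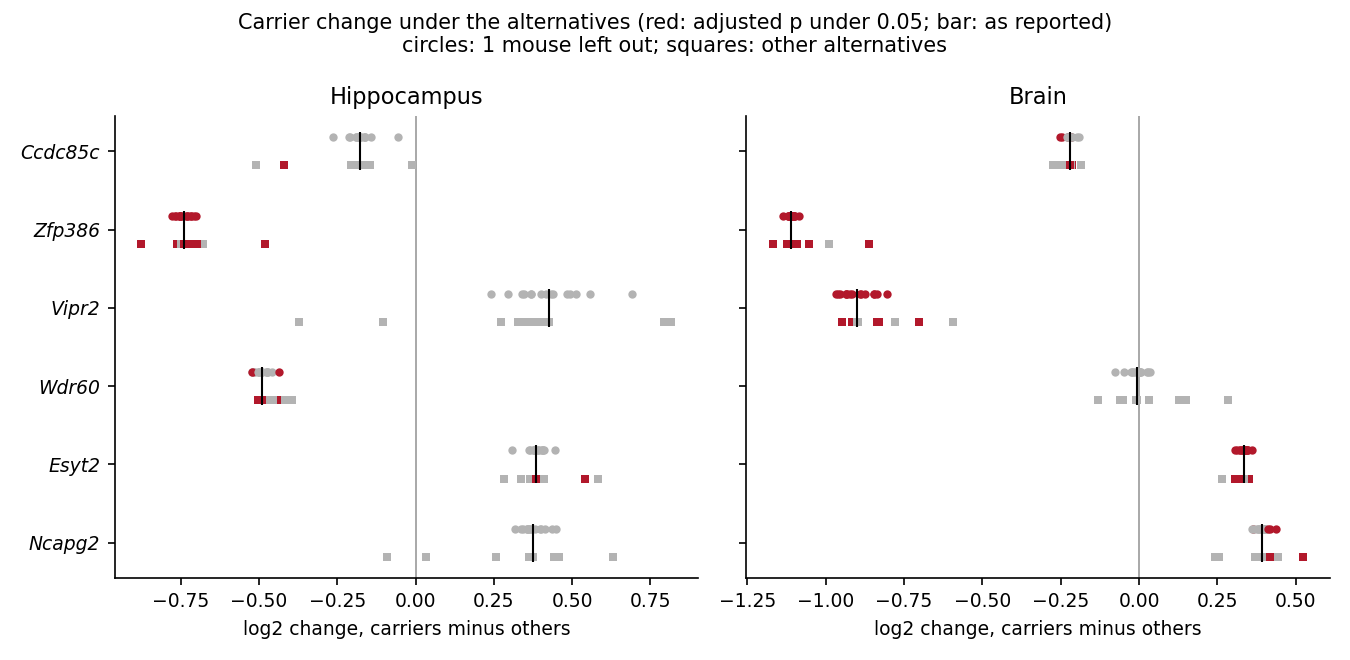
Carrier change on the log2 scale (horizontal axis) of 6 genes as reported (black bar), with 1 mouse left out (circles) and under the other settings (squares), red where the adjusted p was under 0.05. Zfp386 in both tissues and Vipr2 and Esyt2 in brain were called whichever mouse was left out, and Wdr60 in brain lies on both sides of 0.

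Leaving out each mouse in turn kept Zfp386 called in 15 of 15 fits in both tissues, at -0.78 to -0.70 in hippocampus and -1.13 to -1.08 in brain. Vipr2 (-0.97 to -0.80) and Esyt2 (0.31 to 0.36) were called in 15 of 15 fits in brain. Within the slides, Zfp386 changed by -0.75 on slide 1 and -0.68 on slide 2 in hippocampus and by -0.99 on slide 4 in brain, with adjusted p of 0.223, 0.191 and 0.184. On slide 3 in brain, which holds 3 carriers and 5 others, it changed by -1.17 (adjusted p = 0.000789).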

How the data were processed

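Total RNA of 15 hippocampi and 15 brains without hippocampus was labelled with Cy3 by the authors and hybridised to 30 single-colour Agilent arrays on 4 slides. The deposited scanner files hold a background-subtracted processed intensity for each of 62976 spots (3671 control spots, 55681 probes, 28331 with a symbol). The deposited value table holds a score, the z-score of log10 intensity within each array (correlation with the scanner values at least 0.9999958), and served as an alternative. Control and outlier-marked spots were left out here, which the authors' methods do not mention. The processed intensity was used where the methods name raw intensity. As in the methods, it was then quantile-normalized (here over the 30 arrays) and put on the log2 scale, which the deposited files do not hold, and each gene was represented by its brightest probe on average. No spot was saturated.

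Symbols and positions came from RefSeq (GRCm38.p6) through probe accessions. limma 3.58.1 in R 4.3.3 (lmFit, eBayes) fitted 6 groups of genotype and sex per tissue, with Benjamini-Hochberg adjustment over 36717 genes and transcripts. The difference between tissues was fitted over 12 groups on the 30 arrays. The number of arrays limits the precision, and p-values measure the spread between mice. The steps were tested on simulated data. The members and lists were chosen with earlier results of these data known. Named are the given genes (Zfp386, Vipr2, Esyt2, Ccdc85c), up to 10 called members per tissue and direction above background in a group, the 5 bright members nearest to Ighm on each side, and members of the role lists; D430020J02Rik, Aspg, Amn, Abcb5, Tex22, Gm10421, Rapgef5, Adam6a and the genes outside the stretch were chosen after their values were seen.

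Mice carry the same number in both tissues. Over 19494 genes, the deviations from the group means of the 15 pairs correlated at -0.18 to 0.24 (median 0.10, 8 pairs over 0.1); the mouse was a random block in an alternative.

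Alternatives were the scaling to the 75th percentile, quantile normalization within tissue, normexp (offset 50), the mean of probes, a filter on dim probes, slide as a block or by itself, other sets of terms or arrays, other thresholds, the methods' t-test and each mouse left out. The fits of single probes and of each member without male replicate 0 were chosen after seeing the data.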

Additional observations from a re-analysis of the deposited data

Results flagged for a closer look

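Each of 24 sets of carriers or others (6 genes in 2 tissues) was checked for a mouse far from the rest, and chance flags about 1 in 20 such groups; 2 were found, both in hippocampal carriers and both on the array of JHT_3xTgAD male replicate 0. Vipr2 was at 4.02 there, where the next carrier was at 6.09 and the gap was 0.670 of the range. Esyt2 was at 10.999, where the next carrier was at 10.43 and the gap was 0.694 of the range. In the brain of the same mouse, Vipr2 was at 8.51 and Esyt2 at 10.54, each the lowest of the carriers. That array was the only brain array on slide 2, so mouse and slide cannot be told apart for it.

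For Abcb5 in hippocampus, the fitted difference of the carrier change between females with and without the transgenes was -1.78 (limma adjusted p = 0.000677, a difference of differences). No array had its probe above background, so this value gives neither a size nor a direction of a change.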

How the results depend on the processing

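In hippocampus, 3 members were called as reported, 1 with the 75th percentile, normexp, additive terms, carrier and sex only or within slide 2, 0 within slide 1, 5 at an adjusted p under 0.1, 8 with all 30 arrays in 1 fit, 12 by the methods' t-test unadjusted and 24 with slide as a fixed block, where only JHT_3xTgAD males span slides; leaving out 1 mouse gave 2 to 4. In brain, 5 were called, 3 with additive terms, carrier and sex only or the methods' t-test after Benjamini-Hochberg, 2 in females only or at an adjusted p under 0.01, 1 with all 30 arrays, 0 within slide 4 and 20 by the t-test unadjusted; leaving out 1 mouse gave 3 to 5. Members without overlap numbered 1 to 4 in hippocampus (1 with normexp) and 3 to 5 in brain. The counts here and in the next paragraph are of members only. The share of all genes called under each setting is not given. A higher count therefore cannot be read as a result about these genes.

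For JHT against WT females in hippocampus the count was 1 with the 75th percentile and 1 to 2 with 1 mouse left out (brain 1 to 2). For JHT_3xTgAD against 3xTgAD females it was 3 with 30 arrays and 0 to 2 in hippocampus, and 4 with slide as a block, 1 with 30 arrays and 1 to 3 in brain. For males it was 30 with slide as a block, 11 with 30 arrays and 0 to 2 in hippocampus, and 1 to 3 in brain. For 3xTgAD against WT females it was 3 with 30 arrays and 0 to 2 in hippocampus, and 1 with the 75th percentile, 0 with 30 arrays and 0 to 1 in brain. The sex difference gave 0 to 6 and 0 to 1, the background difference 0 with the 75th percentile and 1 to 2 in hippocampus and 0 to 1 in brain, and the tissue difference 0 to 1 with 1 mouse left out. With mouse as a replicate block the tissue difference called 0 members. The block was fitted for the tissue difference only.

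Zfp386 was called in 27 of 29 alternatives in hippocampus and 28 of 29 in brain, Vipr2 in 25 and Esyt2 in 26 in brain, Ncapg2 in 11 and Ccdc85c in 10 in brain, and Wdr60 in 8 in hippocampus. Vipr2 lost the call within slide 4 (adjusted p = 0.752), with 30 arrays (0.169), in females only (0.0638) and by the t-test (0.0922). Signs turned for uncalled values: Vipr2 in hippocampus with slide as a block (-0.10) and within slide 1 (-0.37), Ncapg2 in hippocampus within slide 2 (-0.091), and Wdr60 in brain with normexp (0.033), the deposited table (0.0022 z-score units), slide as a block (0.13), within slide 3 (0.28), in females only (0.15) and with 1 mouse left out (-0.075 to 0.034). The tissue differences of Esyt2 (-0.036 to 0.10), Ncapg2 (-0.094 to 0.072) and Ccdc85c (-0.045 to 0.17) crossed 0 with 1 mouse left out. The cause was not tested for any of these. Low signal limits the genes not above background on every array, whose changes have no order.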
